A study of Mus musculus with 6 samples.

Results

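Chemokines and their receptors were followed in pressure-loaded hearts of mice that over-express the adenosine A2a receptor and of wild-type littermates. Genes entered the set by symbol, and the set was chosen with earlier results of these data known. It took every chemokine ligand (Ccl, Cxcl, Cx3cl1, Xcl1), classical receptor (Ccr, Cxcr, Cx3cr1, Xcr1) and atypical receptor (Ackr, Ccrl2). Each had to have an array row annotated with exactly 1 gene symbol. That gave 57 genes, 34 ligands and 23 receptors, out of 19938 genes with such a row. Only Ccl19 and Ccl25 had more than 1 such row, and each was represented by its brightest, judged by the mean of all hearts. Rows for Ccl21 and Ccl27 carried several symbols and lie outside the rule.

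The A2a-R transgenic group held 3 male FVB mice in which the receptor was over-expressed in a cardiac-specific, inducible manner, and the wild-type group held 3 male FVB littermates. All 6 mice underwent transverse aortic constriction (TAC), a surgical narrowing of the aorta that loads the left ventricle with pressure, at 8 weeks of age, and hearts were taken 14 weeks later. RNA of each heart was hybridised to 1 Affymetrix Mouse Gene 1.0 ST array, and precision is limited by having only 3 arrays per genotype. The labels give neither the promoter that drives the transgene, nor the number of founder lines, nor the state of induction, and hearts without surgery were not analysed here, so that genotype effects in loaded and unloaded hearts cannot be told apart. The row of the receptor gene itself was not analysed here, so the genotype labels were not checked against it. The mean of 7 cardiomyocyte genes (Myh6, Tnnt2, Tnni3, Actc1, Ryr2, Pln and Myl2) was 13.6 to 13.66 on the log2 scale in transgenic arrays and 13.56 to 13.62 in wild-type arrays, so genes of the labelled tissue were bright in every array.

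Chemokines are small secreted proteins that draw leukocytes along a concentration gradient by acting on G protein-coupled receptors that signal mainly through the inhibitory Gi proteins. They are classed by the spacing of their first cysteines (CC, CXC, CX3C and C), and atypical receptors bind them without Gi signalling and so scavenge or display them. In the heart, resident macrophages, endothelial cells and fibroblasts produce chemokines, and the Ccl2 and Ccr2 axis is known for bringing in monocytes after injury or pressure load. The A2a receptor couples to the stimulatory G protein and raises cyclic AMP.

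Of the 57 genes, 4 rose in transgenic hearts and 0 fell at an adjusted p below 0.05, against 0.547% of all genes tested that were called higher and 0.446% called lower. All 4 were ligands: Cxcl13 and Ccl8, which rose more than 3-fold, and Ccl6 and Ccl9, which rose about 1.5-fold. The 53 other genes did not pass. Their differences ran from -0.24 to 0.61 on the log2 scale, and 42 of these 53 were above 0. Over the whole family 46 of 57 differences were above 0 (80.7%), against 45.2% over all genes tested, and the family's median was 0.09 (quartiles 0.01 and 0.18) against -0.01 over all genes (quartiles -0.08 and 0.06). At an unadjusted p below 0.05 in limma, 18 family members (31.6%) were higher and 1 was lower, where all genes gave 6.32% higher and 8.26% lower. That count of 18 was 9 without wild-type replicate 3 and 12 without transgenic replicate 1. All 3 transgenic hearts lay above all 3 wild-type hearts in 17 members (29.8%) and below them in 0, where all genes gave 7.79% above and 12.4% below. Members are not independent of each other, since the same cells can make several chemokines, and no test was made of these shares. In bulk tissue, more cells of a type and more RNA per cell cannot be told apart.

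**Figure D1:**
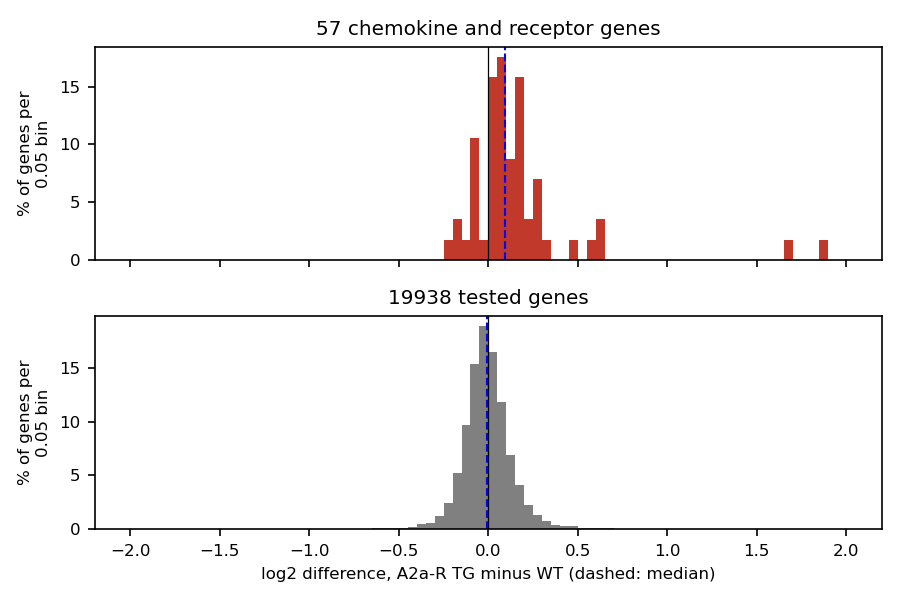
Log2 differences, A2a-R transgenic minus wild type, of the 57 chemokine and receptor genes (top, red) and of all 19938 tested genes (bottom, grey), as percent of genes per bin of 0.05, with the median as a dashed line. The family's median stands at 0.09 and that of all genes at -0.01, and Ccl8 and Cxcl13 lie apart at 1.70 and 1.88.

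Promoter windows are shown for the 4 ligands that rose, and for Ccl12, the neighbour of Ccl8 whose window resembles it but whose level differed little. The windows span 250 bases before to 50 after the RefSeq start (assembly GRCm38.p6), and capitals mark letters that match a searched motif, described after the results. The Ccl6 window holds no match.
Cxcl13, chr5:95956689-95956988, plus strand: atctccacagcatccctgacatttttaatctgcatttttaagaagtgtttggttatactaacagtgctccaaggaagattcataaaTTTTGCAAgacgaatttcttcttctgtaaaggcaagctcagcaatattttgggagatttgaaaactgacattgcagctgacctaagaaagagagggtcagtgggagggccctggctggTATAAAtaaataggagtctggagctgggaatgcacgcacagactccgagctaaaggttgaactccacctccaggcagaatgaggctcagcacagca
Ccl8, chr11:82114935-82115234, plus strand: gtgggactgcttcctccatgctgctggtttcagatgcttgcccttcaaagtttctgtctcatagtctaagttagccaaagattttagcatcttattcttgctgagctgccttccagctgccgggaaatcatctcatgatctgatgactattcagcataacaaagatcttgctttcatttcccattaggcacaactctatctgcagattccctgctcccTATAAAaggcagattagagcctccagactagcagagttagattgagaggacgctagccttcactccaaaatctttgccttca
Ccl12, chr11:82101595-82101894, plus strand: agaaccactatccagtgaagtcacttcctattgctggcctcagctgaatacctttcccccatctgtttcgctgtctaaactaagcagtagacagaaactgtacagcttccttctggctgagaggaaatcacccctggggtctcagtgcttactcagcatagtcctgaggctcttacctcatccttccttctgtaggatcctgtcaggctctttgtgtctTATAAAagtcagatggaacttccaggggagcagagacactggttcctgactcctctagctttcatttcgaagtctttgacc
Ccl6, chr11:83593038-83593337, minus strand: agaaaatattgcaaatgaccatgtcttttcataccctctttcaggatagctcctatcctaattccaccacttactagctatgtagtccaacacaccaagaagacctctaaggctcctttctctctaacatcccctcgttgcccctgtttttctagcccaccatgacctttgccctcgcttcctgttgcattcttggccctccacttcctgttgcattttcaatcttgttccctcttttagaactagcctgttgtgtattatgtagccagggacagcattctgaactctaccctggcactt
Ccl9, chr11:83578587-83578886, minus strand: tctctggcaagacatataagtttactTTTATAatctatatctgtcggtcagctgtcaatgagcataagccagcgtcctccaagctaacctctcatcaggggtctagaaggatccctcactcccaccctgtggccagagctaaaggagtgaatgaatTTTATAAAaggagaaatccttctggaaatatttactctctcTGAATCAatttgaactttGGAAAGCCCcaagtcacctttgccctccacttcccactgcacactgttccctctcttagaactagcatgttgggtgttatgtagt

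**Figure D2:**
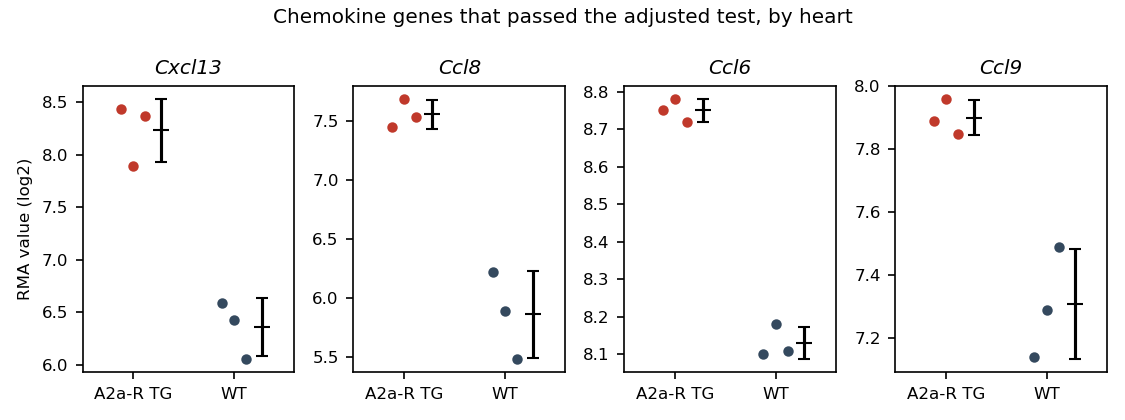
RMA values (log2) of the 4 chemokine genes that passed the adjusted test, with 1 point per heart and the mean and SD beside the points, A2a-R transgenic left of wild type in each panel. Scales differ between panels, and in each panel every transgenic heart lies above every wild-type heart.

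Cxcl13, which attracts B cells through Cxcr5, had log2 values of 8.44, 7.89 and 8.37 in transgenic hearts, against 6.59, 6.43 and 6.05 in wild-type hearts. The lowest transgenic heart stood 7.89 against 6.59 in the highest wild-type heart, so the groups were far apart although the spread within each was wide for this array (SD 0.30 and 0.28). The log2 difference was 1.88 ± 0.17 (SE), a 3.67-fold rise with a 95% interval of 1.48 to 2.28 on the log2 scale (limma adjusted p = 0.0042). This was the largest difference of the family and also the largest positive difference among all 19938 genes.

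Ccl8, a ligand of the monocyte chemoattractant group that acts on Ccr8 in the mouse, had 7.45, 7.69 and 7.54 in transgenic hearts and 6.22, 5.89 and 5.48 in wild-type hearts. The transgenic hearts were alike and the wild-type hearts differed more among themselves (SD 0.12 against 0.37), with no overlap. Ccl8 rose by 1.70 ± 0.17 (SE) on the log2 scale, or 3.24-fold (limma adjusted p = 0.00486). Wild-type replicate 3 had the lowest value of both Ccl8 and Cxcl13, while transgenic replicate 2 had the lowest Cxcl13 and the highest Ccl8 of its group.

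Ccl6 and Ccl9 are CC chemokines known from rodents that act on Ccr1 and are made by myeloid cells. Ccl6 had 8.75, 8.78 and 8.72 in transgenic hearts and 8.10, 8.18 and 8.11 in wild-type hearts. Both groups were tight (SD 0.03 and 0.04), and the rise of 0.62 ± 0.06 (SE, 1.54-fold) had the smallest adjusted p of the family, 0.00352 in limma. Ccl9 had 7.89, 7.96 and 7.85 in transgenic hearts and 7.14, 7.29 and 7.49 in wild-type hearts, again without overlap. Its rise of 0.59 ± 0.09 (SE, 1.51-fold) had a limma adjusted p of 0.0272. The calls of Cxcl13, Ccl8 and Ccl6 held when any 1 array was left out. That of Ccl9 was lost in 5 of these 6 fits, held only without wild-type replicate 3, and reached an adjusted p of 0.116 without wild-type replicate 2, at differences of 0.51 to 0.69.

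The other ligands of the monocyte chemoattractant group stood above wild type without passing. Ccl2, the main ligand of Ccr2, had 7.78, 7.71 and 7.87 in transgenic and 7.54, 7.61 and 7.27 in wild-type hearts, a log2 difference of 0.31 ± 0.09 (SE, limma adjusted p = 0.192). Ccl7, a further Ccr2 ligand, had 7.84, 7.84 and 8.18 against 7.19, 7.69 and 7.58 in wild type (0.47 ± 0.14, adjusted p = 0.195). In both genes the groups did not overlap, and the wild-type hearts were the more scattered. Ccl11, the eotaxin that acts on Ccr3, had 7.72, 7.86 and 7.65 in transgenic and 7.38, 7.69 and 7.37 in wild-type hearts, where the highest wild-type heart lay above the lowest transgenic heart (0.26 ± 0.10, adjusted p = 0.276). Ccl12, a mouse Ccr2 ligand, had 5.63, 5.61 and 5.71 against 5.57 in each wild-type heart, a log2 difference of 0.08 ± 0.06. The 95% interval for Ccl12 ran from -0.05 to 0.21, below the whole interval of its neighbour Ccl8 (1.31 to 2.08).

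Among 9 inflammatory CC ligands all differences were above 0, from 0.01 to 0.62, and Ccl6 and Ccl9 were the 2 that passed. Ccl3, a macrophage inflammatory protein that acts on Ccr1, had 6.33, 6.85 and 6.72 in transgenic and 6.45, 5.86 and 5.76 in wild-type hearts. The difference of 0.61 ± 0.19 (SE) was close to that of Ccl6, but wild-type replicate 1 lay above transgenic replicate 1 and the adjusted p was 0.207 in limma. Ccl4, a macrophage inflammatory protein that sits beside Ccl3, had 6.26, 6.22 and 6.14 against 6.23, 6.06 and 6.13 in wild type, and Ccl5, a further Ccr1 ligand, had 7.39, 7.51 and 7.34 against 7.41, 7.38 and 7.23. Both overlapped between groups, at 0.07 ± 0.07 each. Ccl1, a Ccr8 ligand, had 6.21, 6.31 and 6.13 in transgenic and 5.95, 6.0 and 6.15 in wild-type hearts. Ccl20, the ligand of Ccr6, had 6.54, 6.34 and 6.36 in transgenic and 6.28, 6.27 and 6.14 in wild-type hearts. Each of these 2 stood at 0.18 ± 0.08 (SE, limma adjusted p = 0.315 and 0.311), and the groups of Ccl20 did not overlap while those of Ccl1 did. Of the Ccr3 ligands in this group, Ccl24 differed by 0.04 ± 0.08. Ccl26 had 5.67, 5.44 and 5.43 in transgenic and 5.53, 5.56 and 5.42 in wild-type hearts, at 0.01 ± 0.08 the smallest difference of the group.

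Ligands that place lymphocytes in lymphoid tissue, skin and gut showed small differences in the rows chosen by the rule. Of 5 measured, 0 passed in limma, 0 had an unadjusted p below 0.05 and their differences ran from -0.16 to 0.15. Ccl19, a Ccr7 ligand, had 6.73, 6.63 and 6.53 in transgenic and 6.52, 6.48 and 6.43 in wild-type hearts, which did not overlap (0.15 ± 0.07 SE, limma adjusted p = 0.346). Its 4 other rows gave differences of 0.17 to 0.20, at unadjusted limma p of 0.0236 to 0.0532. Ccl21 and Ccl27, ligands of the same kind outside the rule, stood higher, at 0.28 and at 0.22 to 0.24. Each of their rows had an unadjusted limma p below 0.05 with all rows fitted together, and none passed after adjustment. Ccl25, the ligand of Ccr9, had 6.87, 6.76 and 6.53 against 6.77, 6.96 and 6.91 in wild type, at -0.16 ± 0.10. The groups overlapped in it, as they did in the remaining 3. Ccl22, a Ccr4 ligand, had 5.77, 5.75 and 5.91 in transgenic and 5.68, 5.78 and 5.93 in wild-type hearts (0.01 ± 0.08). Ccl17, the other Ccr4 ligand, stood at 0.12 ± 0.11, and Ccl28, a Ccr10 and Ccr3 ligand, at 0.09 ± 0.09.

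The CXC ligands that draw neutrophils through Cxcr2 did not pass, and in none did the groups separate. Cxcl1 had 7.42, 7.09 and 7.44 in transgenic and 7.38, 7.26 and 6.97 in wild-type hearts (0.11 ± 0.13 SE). Cxcl2 stood at -0.17 ± 0.09, Cxcl3 at 0.10 ± 0.09, Cxcl15, the mouse lungkine, at 0.16 ± 0.09. Cxcl5 had 4.86, 5.07 and 4.88 in transgenic and 4.82, 5.02 and 4.95 in wild-type hearts, the smallest difference of the group (0.01 ± 0.08).

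The 3 ligands of Cxcr3, which interferon induces and which attract activated T cells, did not run the same way, and none passed. Cxcl10 had 6.54, 6.29 and 6.61 in transgenic and 6.28, 6.25 and 6.07 in wild-type hearts, just without overlap (0.28 ± 0.10 SE, limma adjusted p = 0.244). Cxcl11 had 5.30, 5.43 and 5.48 against 5.12, 5.33 and 5.14 in wild type, with overlap (0.21 ± 0.08, adjusted p = 0.281). Cxcl9 had 6.28, 6.59 and 6.34 in transgenic and 6.75, 6.72 and 6.47 in wild-type hearts, with overlap. It differed by -0.24 ± 0.10 (adjusted p = 0.335) and was the 1 member at an unadjusted p below 0.05 that stood lower. On chromosome 5 these 3 genes lie close together, and Cxcl9 and Cxcl10 are separated by 1 tested gene.

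Cxcl12, the stromal ligand of Cxcr4, had 10.31, 10.34 and 10.25 in transgenic and 10.18, 10.34 and 10.25 in wild-type hearts. The groups overlapped, and the 95% interval of the log2 difference was -0.10 to 0.19. Cxcl14, an epithelial and stromal chemokine, had 8.46, 8.51 and 8.44 against 8.51, 8.64 and 8.50 in wild type (-0.08 ± 0.06 SE). Cxcl16, the membrane-bound ligand of Cxcr6, stood at 0.09 ± 0.10. Cxcl17, a mucosal chemokine, had 7.05, 7.08 and 7.12 in transgenic and 6.85, 6.99 and 6.89 in wild-type hearts, without overlap but short of the threshold (0.17 ± 0.06, limma adjusted p = 0.248). Cx3cl1, or fractalkine, the membrane-bound ligand of Cx3cr1 on monocytes and macrophages, had 8.42, 8.20 and 8.46 against 8.44, 8.43 and 8.41 in wild type (-0.07 ± 0.08). Xcl1, which attracts cross-presenting dendritic cells, had 5.78, 5.72 and 5.75 in transgenic and 5.68, 5.63 and 5.66 in wild-type hearts. The groups of Xcl1 did not overlap, but the difference was only 0.09 ± 0.05 (adjusted p = 0.475).

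Of 23 receptors 17 were above 0 (73.9%, against 45.2% of all genes) and 0 passed in limma. At an unadjusted limma p below 0.05, 5 were higher (21.7%) and 0 lower, against 6.32% and 8.26% of all genes. The receptors' median difference was 0.06, and that of the ligands was 0.11. None of the receptors of the 4 ligands that rose was called. Cxcr5, through which Cxcl13 acts on B cells, had 4.55, 4.17 and 4.74 in transgenic and 4.69, 4.63 and 4.34 in wild-type hearts, with a 95% interval of the difference from -0.41 to 0.28. Ccr8 had 4.73, 4.90 and 5.07 against 4.96, 4.87 and 4.70 in wild type (0.06 ± 0.10 SE). Ccr1, the receptor of Ccl6 and Ccl9, had 5.18, 5.30 and 5.26 in transgenic and 5.41, 5.28 and 5.27 in wild-type hearts (-0.07 ± 0.07, interval -0.22 to 0.08). All of these rows lay among the dimmest 40% of tested rows, as did 33 of the 57 members.

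Cxcr6, the receptor of Cxcl16 on T and NK cell subsets, came nearest to the threshold. It had 5.74, 5.72 and 5.77 in transgenic and 5.59, 5.42 and 5.45 in wild-type hearts, did not overlap, and differed by 0.26 ± 0.06 (SE, limma adjusted p = 0.125). Ccr2, the monocyte receptor of Ccl2 and Ccl7, had 5.79, 5.72 and 5.93 against 5.69, 5.56 and 5.47 in wild type (0.24 ± 0.08, adjusted p = 0.232). Ccr10, a receptor of skin- and mucosa-homing lymphocytes, had 7.04, 7.06 and 7.15 in transgenic and 6.93, 6.89 and 6.88 in wild-type hearts (0.18 ± 0.06, adjusted p = 0.204). Ccr2 and Ccr10 both separated the groups. Ccr6, the Ccl20 receptor, had 5.32, 5.23 and 5.25 against 5.08, 5.21 and 4.95, also without overlap (0.19 ± 0.08, adjusted p = 0.308). Ccr7, which guides lymphocytes and dendritic cells to lymph nodes, had 7.59, 7.10 and 7.26 in transgenic and 7.16, 7.03 and 6.96 in wild-type hearts (0.27 ± 0.12, adjusted p = 0.357). Its difference is in the range of that of Cxcr6, but the groups overlapped.

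The 10 remaining classical receptors lay between -0.08 and 0.17. Cx3cr1 had 7.70, 7.76 and 7.99 in transgenic and 7.87, 7.62 and 7.57 in wild-type hearts (0.13 ± 0.10 SE). Cxcr4 had 7.47, 7.67 and 7.69 against 7.53, 7.59 and 7.64 in wild type (0.02 ± 0.07), and the groups overlapped in both. Cxcr3, the receptor of Cxcl9, Cxcl10 and Cxcl11, had 6.89, 6.67 and 6.93 in transgenic and 6.91, 6.62 and 6.91 in wild-type hearts (0.02 ± 0.10). Ccr9, the gut-homing receptor of Ccl25, had 4.94, 4.70 and 5.08 against 5.10, 4.98 and 4.78 in wild type (-0.05 ± 0.11). These are the smallest differences of their receptor groups. The neutrophil receptors Cxcr1 and Cxcr2 stood at 0.17 ± 0.11 and 0.14 ± 0.07, Ccr3 at 0.10 ± 0.07, Ccr1l1 at 0.09 ± 0.08, Xcr1 at 0.04 ± 0.10 and Ccr4 at -0.08 ± 0.10.

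The 5 atypical receptors had a median difference of 0.01, and none passed (0 in limma). At an unadjusted limma p below 0.05, 1 was higher (20%, against 6.32% of all genes). Ackr1, the Duffy antigen receptor of venules and red cells, had 5.66, 5.65 and 5.83 in transgenic and 5.62, 5.53 and 5.50 in wild-type hearts, did not overlap, and stood at 0.16 ± 0.07 (SE, limma adjusted p = 0.335). Ackr3, which scavenges Cxcl12, had 7.86, 7.90 and 8.05 against 8.26, 7.83 and 7.96 in wild type (-0.08 ± 0.11). The groups overlapped widely in Ackr3. Ackr2, a scavenger of inflammatory CC chemokines, had 7.28, 7.16 and 7.29 in transgenic and 7.14, 7.20 and 7.35 in wild-type hearts (0.01 ± 0.07). Ackr4, which removes Ccl19 and Ccl25, stood at -0.10 ± 0.07. Ccrl2, which presents the attractant chemerin, had 7.64, 7.77 and 7.76 in transgenic and 7.55, 7.78 and 7.68 in wild-type hearts (0.05 ± 0.08).

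**Figure D3:**
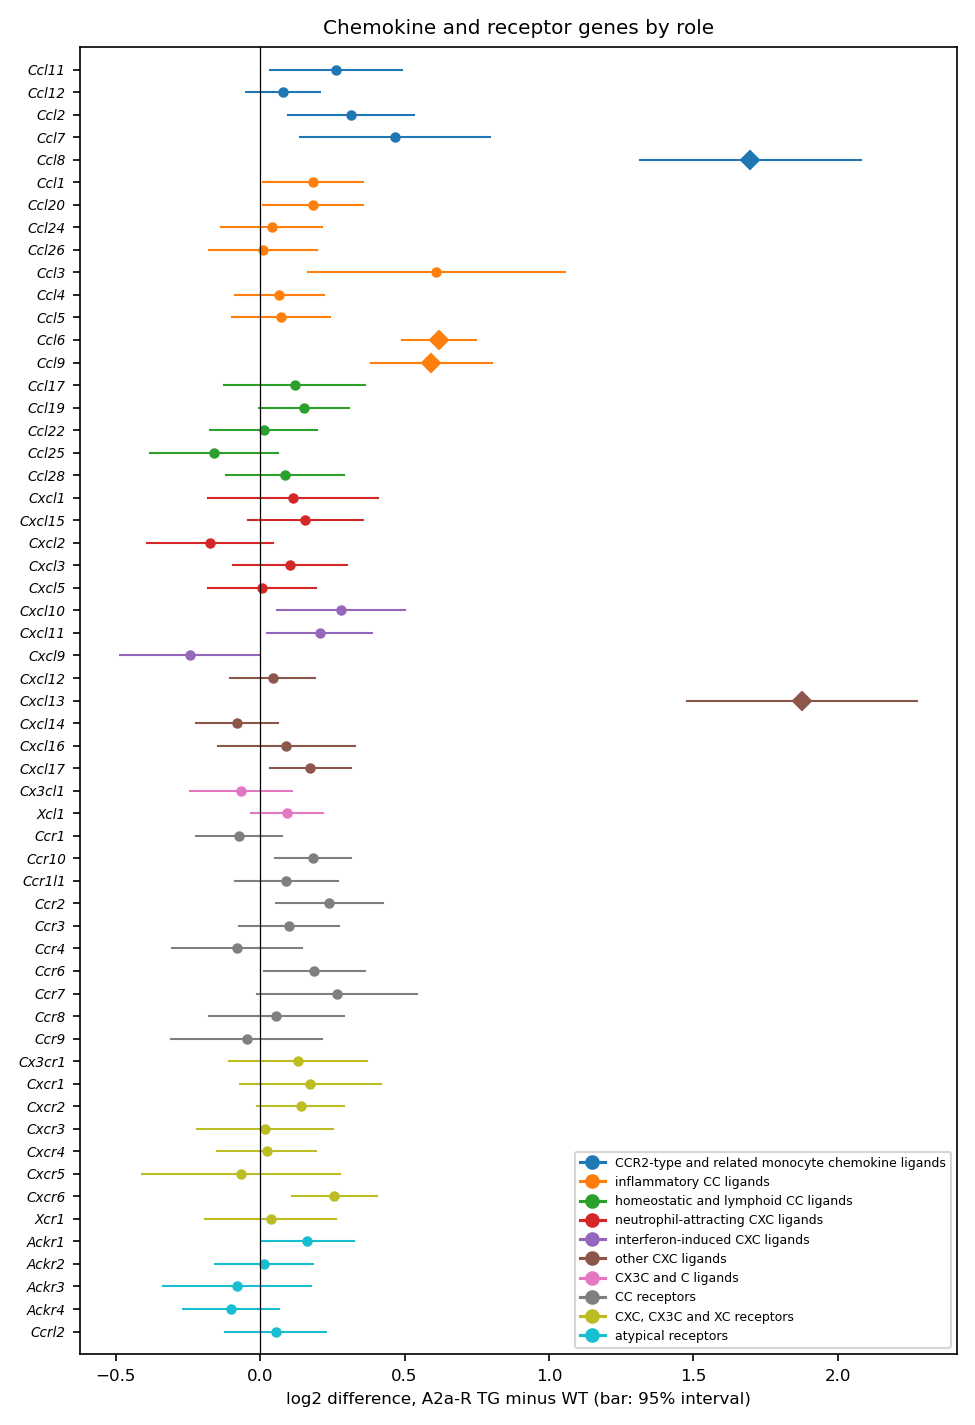
Log2 difference, A2a-R transgenic minus wild type, with its 95% interval for each of the 57 genes, coloured by role, with diamonds for the 4 genes that passed at an adjusted p below 0.05. Among 9 inflammatory CC ligands and 5 ligands of the monocyte group every point lies above 0, and the 5 atypical receptors lie between -0.10 and 0.16.

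The CC ligands that rose sit in a pair of gene groups on chromosome 11. Along that chromosome RefSeq places Ccl2, Ccl7, Ccl11, Ccl12, Ccl8 and Ccl1 next to each other, and, beyond a stretch of other genes, Ccl5, Ccl9, Ccl6, Ccl3 and Ccl4. All 11 were above 0, from 0.07 to 1.70 with a median of 0.31. Of these, 3 passed (27.27%), and in 6 (54.55%) every transgenic heart lay above every wild-type heart. Over all genes 45.2% were above 0, 0.547% were called higher and 7.79% separated in that way. Of the 28 other tested genes between Ccl2 and Ccl4, which include the Slfn family, 8 were above 0 and 19 below, with a median of -0.05. None of them passed (0 in limma). At an unadjusted limma p below 0.05, 0 were higher and 3 lower (10.7%), against 6.32% and 8.26% of all genes. In 1 of them all transgenic hearts lay above all wild-type hearts and in 5 below, against 7.79% and 12.4% of all genes. Within the chemokine groups the differences were uneven, with Ccl12 at 0.08 beside Ccl8 at 1.70, and Ccl4 at 0.07 beside Ccl3 at 0.61. Wfdc17, which is not a chemokine gene and was named after its values were seen, follows Ccl4 as the next tested gene and rose by 0.60 ± 0.08 (SE, limma adjusted p = 0.014). It was the 1 gene that passed among the 20 tested genes on each side. The 11 members on chromosome 5 held Cxcl13 as the 1 call, with 9 above 0. The 14 receptors on chromosome 9 had a median of 0.05 and 0 calls in limma, with 2 higher (14.3%) at an unadjusted p below 0.05.

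**Figure D4:**
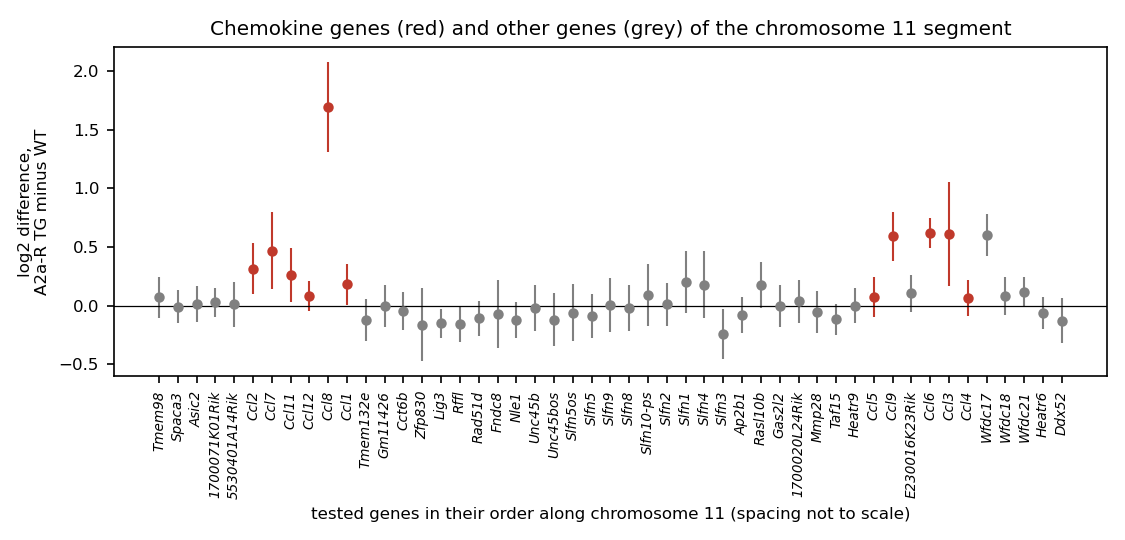
Log2 differences with 95% intervals, A2a-R transgenic minus wild type, of tested genes in their order along chromosome 11 from 5 genes before Ccl2 to 5 after Ccl4. The chemokine genes (red) lie at 0.07 to 1.70 and the other genes between Ccl2 and Ccl4 (grey) at -0.24 to 0.20.

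In the promoter windows printed above, the letters of 9 motifs were sought on both strands. A window was found for 43 of the 57 members (47 windows in all, of 32851 RefSeq windows used). Windows of a single chromosome that holds no member were left out, while those of other chromosomes without members stayed in. The shares of all windows below refer to these 32851. The TATA box letters TATAAA lay 32 to 27 bases before the start of Ccl8 and 31 to 26 before that of Ccl12, and were also in the windows of Cxcl13 and Ccl9, where in Ccl9 a match on each strand overlaps. They were in 29.8% of member windows and in 13.6% of all windows. The kappa B type letters GGNNTTTCC were in the Ccl9 window on the minus strand and in 21.3% of member windows, against 5.82% of all. The AP-1 letters TGANTCA were in the Ccl9 window, in 14.9% of member windows and in 7.81% of all. The C/EBP type letters TTGCNNAA were in the Cxcl13 window, in 4.26% of member windows and in 10.8% of all. The cyclic AMP response element TGACGTCA was in 0 of the 47 member windows and in 1.79% of all, and its shorter form TGACG, which every TGACGTCA contains, in 21.3% and 20.8%, with none in the windows of the 4 ligands that rose. Interferon response type letters GAAANNGAA were in 17.0% and 8.56%, gamma-activated type letters TTCNNNGAA in 8.51% and 8.30%, and PU.1 type letters GAGGAAGT in 2.13% and 3.20%, and none of these 3 was in the windows of the ligands that rose. The Ccl6 window held none of the 9. These are letter matches and no measure of binding.

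The windows of Ccl12 and Ccl8 were identical at 60% of 300 positions in a global alignment, the fourth highest of 903 member pairs, whose median was 52%. The 3 closer pairs were among Cxcl1, Cxcl2 and Cxcl3. Ccl6 and Ccl9, which rose by similar amounts, shared 56.7% and a longest common run of 13 bases, at rank 24.

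Other genes of the pathway were taken from lists by function, chosen with earlier results of these data known. Of 29 genes that carry signals from chemokine receptors, 16 were above 0 (55.2%, against 45.2% of all genes). The median was 0.02, and 0 passed in limma. At an unadjusted limma p below 0.05, 5 were higher (17.2%) and 2 lower (6.90%), against 6.32% and 8.26% of all genes. Grk3, a kinase that desensitises such receptors, stood at 7.25 ± 0.15 in transgenic and 6.83 ± 0.03 in wild-type hearts (SD, n = 3 each), a difference of 0.42 ± 0.08 (SE, limma adjusted p = 0.0605). Elmo1, an adaptor of Rac activation in migrating cells, stood at 8.13 ± 0.03 in transgenic and 8.43 ± 0.11 in wild-type hearts, a difference of -0.30 ± 0.07 (adjusted p = 0.0995). Of 12 genes of chemokine handling outside the rule, 4 were above 0 and 8 below, with a median of -0.08, and 0 passed in limma. Of them, 3 higher (25%) and 2 lower (16.7%) had an unadjusted limma p below 0.05. They included Rarres2, the chemerin precursor, at 0.30 ± 0.07 (adjusted p = 0.123), and Cd74, a receptor of the cytokine Mif, at 0.41 ± 0.13 (0.202). The platelet chemokine Ppbp stood at 8.22 ± 0.64 in transgenic and 8.94 ± 0.23 in wild-type hearts (SD, n = 3 each), at -0.72 ± 0.28, and Pf4 at 0.00 ± 0.08. Of 23 cytokines and factors known to act upstream of chemokine genes, 0 passed in limma, the median was 0.03, and 3 higher and 3 lower had an unadjusted p below 0.05. Nfkb2, a subunit of NF-kB, stood at 0.20 ± 0.05 (adjusted p = 0.154) and Csf1, the macrophage growth factor, at -0.25 ± 0.08 (0.193). The NF-kB subunits Rela and Relb stood at -0.14 ± 0.06 (0.300) and -0.03 ± 0.07. Tnf, with the largest difference of the list, stood at -0.46 ± 0.20 (0.333).

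Of the marker lists of other cell types, that of macrophages stood apart between the genotypes. The lists were chosen with earlier results of these data known, so their counts describe these hearts and are no independent support. All 14 macrophage markers were above 0 with a median of 0.25. Of these, Cd163 and Mertk stood at only 0.003 ± 0.07 and 0.05 ± 0.06 (SE), with overlap. In 9 (64.3%) every transgenic heart lay above every wild-type heart, against 7.79% of all genes. Lgals3 passed, at 8.15 ± 0.06 in transgenic and 7.54 ± 0.03 in wild-type hearts (SD, n = 3 each, limma adjusted p = 0.00423). It made up 7.14% of the list, where 0.547% of all genes were called higher. The list's mean log2 level was 8.56 to 8.65 in transgenic and 8.26 to 8.37 in wild-type hearts. The defining marker Adgre1 stood at 0.25 ± 0.09 (SE) and Csf1r at 0.14 ± 0.07, both short of the threshold. Without Cd68, the macrophage marker of largest difference, the list's mean was 8.52 to 8.60 in transgenic and 8.24 to 8.34 in wild-type hearts. Of 6 monocyte markers 5 were above 0 and 0 passed in limma, with a median of 0.05. At an unadjusted limma p below 0.05, 2 were higher (33.3%, against 6.32% of all genes). The monocyte list's mean was 5.65 to 5.68 in transgenic and 5.50 to 5.56 in wild-type hearts. Chil3 and F13a1 had the smallest p of that list, at 0.53 ± 0.14 and 0.16 ± 0.06. Plac8, Fcgr4, Ms4a4c and Itgam stood at 0.07, 0.04, 0.02 and -0.06, and without Chil3 the list's means overlapped, at 5.72 to 5.82 in transgenic and 5.70 to 5.77 in wild-type hearts. Of 7 dendritic cell markers, which include the member Xcr1, 6 were above 0 and 0 passed in limma, with a median of 0.07. At an unadjusted limma p below 0.05, 2 were higher (28.6%). They were H2-Aa at 0.54 ± 0.10 (adjusted p = 0.0534) and Cd209a at 0.26 ± 0.11. Zbtb46 stood at -0.14 ± 0.07, with every transgenic heart below every wild-type heart, Itgax stood at 0.16, and Flt3, Xcr1 and Clec9a stood at 0.01, 0.04 and 0.07. The dendritic list's mean was 6.76 to 6.80 in transgenic and 6.56 to 6.70 in wild-type hearts, but without H2-Aa the groups overlapped, at 6.20 to 6.26 and 6.10 to 6.23. The part of these cells in the rise of the 4 ligands was not tested.

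Lymphocyte and granulocyte markers overlapped between the groups as lists. Over all genes, 6.32% were higher and 8.26% lower at an unadjusted limma p below 0.05. The mean of 6 B cell markers, the cells that Cxcl13 attracts, was 5.79 to 5.89 in transgenic and 5.84 to 5.94 in wild-type hearts. Of these, 3 were above 0 and 3 below with 0 calls in limma, and at an unadjusted p below 0.05 Ms4a1 stood higher at 0.19 ± 0.07 (SE) and Blk and Cd79a lower at -0.34 ± 0.07 and -0.35 ± 0.09. Of 10 T and NK cell markers Il7r passed, with a rise of 0.57 ± 0.07 (limma adjusted p = 0.00995), and the list's median was 0.01. Its mean was 5.68 to 5.75 in transgenic and 5.59 to 5.69 in wild-type hearts. For neutrophils 3 of 9 markers were above 0 and for mast cells and eosinophils 5 of 9, with 0 calls in limma and 0 at an unadjusted p below 0.05 in either list. In the neutrophil list Csf3r stood at -0.14 ± 0.07 and Camp at 0.14 ± 0.06, and in the other Siglecf stood at 0.17 ± 0.09 and Ms4a2 at 0.12 ± 0.06. Lymphatic endothelial markers, of cells that make Ccl21, had a median of -0.03, with Prox1 at -0.14 ± 0.06 and Lyve1 at 0.15 ± 0.08. Endothelial markers had a median of -0.07, with Kdr at -0.14 ± 0.06 and Vwf at -0.12 ± 0.07. Fibroblast and mesothelial markers had a median of -0.01, with Upk3b at 0.18 ± 0.09 and Lum at -0.11 ± 0.06. The cardiomyocyte list had a median of -0.01, with Ryr2 at 0.25 ± 0.07 and Myh6 at -0.06 ± 0.06. In these 4 lists 0 passed in limma, and 1 lymphatic and 1 endothelial marker lower and 1 cardiomyocyte marker higher had an unadjusted p below 0.05.

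**Figure D5:**
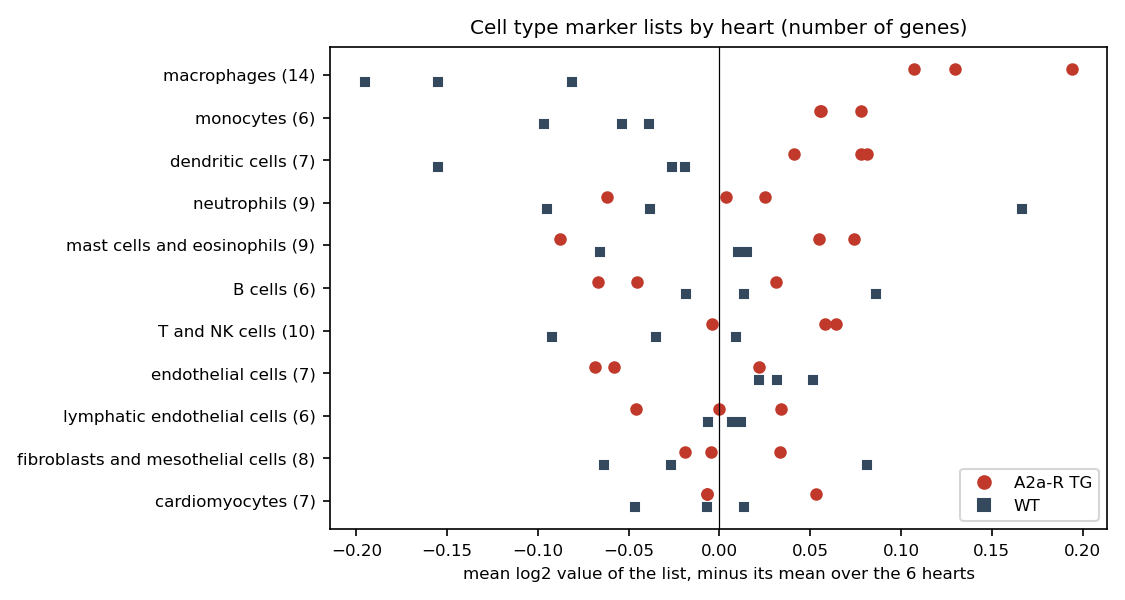
Mean log2 value of each cell type marker list in each heart, minus that list's mean over the 6 hearts, with A2a-R transgenic hearts as red circles above wild-type hearts as dark squares. Transgenic and wild-type hearts separate for macrophages, for monocytes and dendritic cells only with Chil3 and H2-Aa in their lists, and overlap for neutrophils, mast cells and eosinophils, B cells and T and NK cells.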

How the data were processed

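RNA was measured in 6 hearts, 3 A2a-R transgenic and 3 wild type after TAC. Values came as the authors deposited them, in log2 units from RMA (background correction, quantile normalization, probe summary) and Partek, per the submitters' processing notes. Versions, settings and genome build: not given in the sources used here. RMA gives arrays like distributions, so a global shift in RNA is not visible, and differences of dim rows are known to be compressed by it.

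Of 28853 rows, the platform annotation of 2016 gave exactly 1 symbol for 21789, which were fitted with limma 3.58.1 in R 4.3.3 (lmFit and eBayes, no covariate), transgenic minus wild type. Benjamini-Hochberg adjustment ran over these rows, with a threshold of 0.05. Errors are SD over 3 hearts or the moderated SE. The median SE was 0.0731 over all rows and 0.0808 over the 57 members, whose symbols all equal those in RefSeq (GRCm38.p6). The same code was checked on simulated data. Values of different rows are not compared as abundances.

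The members and lists were chosen with earlier results of these data known. Values by heart are given for members at an adjusted or unadjusted p below 0.05, receptors of called ligands, the 3 ligands and 3 receptors of highest mean, and the least changed member of each role group. For pathway and marker lists the called genes, or else the 2 of smallest p, are named. Values by heart of Ccl4, Ccl5, Ccl19, Ccl25, Cxcl1, Xcl1, Ccr7 and Cxcr4 were added after their values were seen. So were the genes Ppbp, Pf4, Adgre1, Csf1r, Cd68, Mertk, Cd163, Ms4a1, Wfdc17, Rela, Relb, Tnf and the further monocyte and dendritic cell markers. The list means without the gene of largest difference were likewise added after their values were seen. Promoter windows were compared by global alignment. Alternatives were the replicate number as a block, further quantile normalization, median centring, array weights, a robust trended prior, a filter on the dimmest 40% of rows, all rows, other thresholds, every row of a gene, and each array left out.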

Additional observations from a re-analysis of the deposited data

How the results depend on the processing

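Cxcl13, Ccl8 and Ccl6 kept their direction and their call in every fit run. Ccl9 lost its call with the replicate block (limma adjusted p = 0.0715), at an adjusted p below 0.01, and without any 1 array except wild-type replicate 3. The number of members called higher was 3 or 4 throughout, and 0 members were called lower in any fit. No uncalled member passed under any alternative.

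The number of rows called in the whole table was 209 (113 higher, 96 lower) and moved more: 97 with the replicate block, 493 without the dimmest 40% of rows, 579 with a trended and robust prior, 476 at an adjusted p below 0.10, 65 at one below 0.01, and 84 to 147 with 1 array left out. The titles' replicate numbers are not said to pair animals. Deviations of equally numbered arrays from their group means correlated at 0.155, -0.0113 and -0.104 across 21789 rows. Transgenic replicate 2 correlated best with wild-type replicate 3 (0.234). Deviations from means of only 3 arrays cannot show whether animals were paired, so the block result is a sensitivity value only. Without the dimmest 40% of rows 24 members remain for testing, of which 19 were above 0 and 10 were higher at an unadjusted p below 0.05. These last 2 counts were followed only after the data had been seen, and no share of all genes is given beside them. The filter used the mean of all 6 hearts, with a cutoff of 6.57. Wild-type means of Ccl8 (5.86) and Cxcl13 (6.36) lay below it, so both were kept through their transgenic values. Their calls in that fit are no independent support. With 1 array left out, 41 to 47 of the 57 members were above 0 and 9 to 16 were higher at an unadjusted p below 0.05, the lowest without wild-type replicate 3. The members' median difference stayed between 0.08 and 0.12 in all fits, and centring arrays on their medians gave 0.11.

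No detection call comes with the values, so how far dim members such as Cxcr5 and Ccl12 lie above background is unknown.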

Other observations

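Rows with several gene symbols hold further chemokine signal. The 4 rows shared by the Ccl21 copies and neighbouring gene models hold the same value in each array, 9.99, 9.87 and 9.70 in transgenic and 9.69, 9.53 and 9.51 in wild-type hearts, and count as 1 measurement. Ccl21 is the lymphatic ligand of Ccr7. The difference was 0.28 ± 0.09 (SE), with no overlap and a limma adjusted p of 0.233 when all 28853 rows were fitted together. Of the 3 rows of the Ccl27 copies 2 were equal, and the differences were 0.22 ± 0.07 and 0.24 ± 0.06 (adjusted p = 0.233 and 0.164), again with every transgenic heart above every wild-type heart. Which copy gives the signal cannot be told from such rows.

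Of the Ccl19 rows, 2 of 5 held equal values in all 6 arrays, and the row of highest mean had the smallest difference of the 5. The 2 rows of Ccl25 stood at -0.16 ± 0.10 and -0.09 ± 0.09 (SE).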
